A study of Gallus gallus with 6 samples.

Results

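The resting state of HD11 cells was described from the 3 mock libraries of the series, out of 6 libraries in all. HD11 is a chicken macrophage-like line that grew out of bone marrow cells transformed by an avian virus carrying a myc oncogene, so it is one transformed line and not a population of primary macrophages. The study compared HD11 cells exposed for 3 h to 100 ng/mL of recombinant chicken IFN-beta, a type I interferon, with mock cells, which were left untreated. All 6 libraries are labelled wild type and one batch, with 3 independent biological replicates per group, and no culture time is recorded for the mock cells. No contrast with the IFN-beta libraries is made here, and values in lists of 3 are in the order of mock replicates 1, 2 and 3. Levels are TPM, reads scaled by transcript length and by library, so levels of different genes can be set side by side, and means are given with the SD over n = 3 libraries.

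Macrophages are long-lived phagocytes. Their identity depends on the ETS factor PU.1 and on signalling from the receptor of macrophage colony-stimulating factor, and in the resting state they carry receptors for microbes, a large lysosomal system and the parts of the interferon pathway, while most cytokine and antiviral genes wait for a signal. Chicken macrophages differ from those of mammals in some of these parts, with Toll-like receptors of their own, a compact MHC, and no gene for the RNA sensor RIG-I.

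The mock libraries held 14903 listed genes and totals of 15665594 to 15735291 counts, and each library detected 13421 to 13465 genes with a count above 0. Of the listed genes, 10173 (68.3%) had a mean of at least 1 TPM, the threshold used for a detected gene, 7011 had at least 10 TPM, 1562 at least 100 TPM and 148 at least 1000 TPM. The median over all listed genes was 8.15 TPM. RefSeq gives 44 of the genes in the lists used here another symbol than the deposited one, and the deposited symbol is used. Genes at or above 100 TPM held 79.4% of all TPM, and 217 genes held 50% of it. For very short transcripts a TPM value can rest on few reads. The median gene gained 0.032 TPM per read, while 65 genes gained more than 1 TPM per read, so read counts summed over the 3 libraries are given where they are low. The authors' counts are estimates and need not be whole.

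The 4 genes listed here as markers, CD74, SPI1, CSF1R and ERG, each had a mean of at least 100 TPM. They were chosen with earlier results of these data known, so their levels are no test of cell identity. ERG was also a member of the endothelial list. CD74, the invariant chain of MHC class II, had 674, 751 and 739.7 TPM, a mean of 722 ± 41.2 TPM. SPI1, which encodes PU.1, had 391, 373 and 382 TPM, a mean of 382 ± 8.75 TPM. CSF1R, through which macrophage colony-stimulating factor signals, had 279.5, 289 and 258 TPM, a mean of 276 ± 15.7 TPM. ERG, an ETS factor known from blood stem cells, endothelium and the megakaryocyte line, had 158, 148 and 134 TPM, a mean of 147 ± 12.1 TPM. The order CD74, SPI1, CSF1R, ERG was the same in the 3 libraries, with no overlap between neighbours. Taken as SD in percent of the mean, the libraries varied least for SPI1, with 2.29%, and most for ERG, with 8.27%. CD74 and CSF1R lay between, with 5.71 and 5.68%. The lowest ERG value was in mock replicate 3 and the lowest CD74 value in mock replicate 1.

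**Figure D1:**
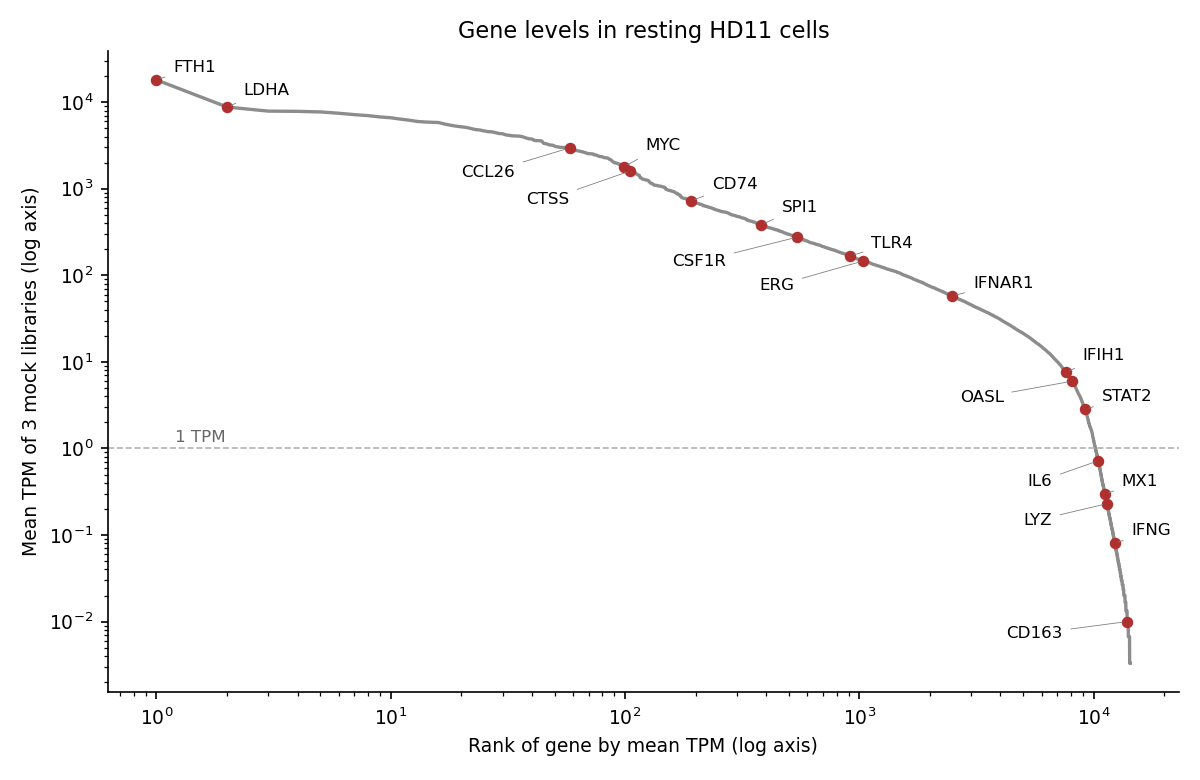
Mean TPM of the 3 mock libraries (log axis) against the rank of each gene by that mean (log axis), for listed genes with a mean above 0. Points mark named genes, from FTH1 at rank 1 with 18072 TPM, through MYC at rank 99 and SPI1 at rank 379, to IL6, MX1, LYZ and CD163, which lie under the dashed line at 1 TPM.

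The most abundant transcript was FTH1, the ferritin heavy chain that stores iron, with 17656, 17885 and 18674 TPM (18072 ± 534 TPM). LDHA, which turns pyruvate into lactate, came next with 9112, 8669.6 and 8584 TPM. Of the 30 genes of highest mean TPM, 23 encoded cytosolic ribosomal proteins, led by RPL27 with 7877 TPM, RPS25 with 7712 TPM, RPL37A with 7449 TPM and RPS16 with 7175 TPM. Besides FTH1 and LDHA, the remainder of these 30 genes were EEF1A1, an elongation factor of translation, with 7832 ± 60.1 TPM, the glycolytic genes ENO1 with 6603 ± 20.2 TPM and GAPDH with 5982 ± 99.4 TPM, and the actin genes ACTB, with 5816 ± 51.3 TPM, and TMSB4X, which encodes the actin-binding peptide thymosin beta, with 5415 ± 168 TPM. These 30 genes held 18.9% of all TPM, and their coefficients of variation over the 3 libraries were 0.30 to 3.68%. The ribosomal protein genes as a family, 68 listed members with a median of 3590.3 TPM, held 25.5, 25.7 and 26.4% of TPM in the 3 libraries. The lowest of them was RPL29 at 308 TPM. Many of these genes have near-identical copies, so their single values are uncertain where the authors' counting could split reads.

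Outside the ribosomal family 83 genes reached 1000 TPM, and several of those named here were chosen after their values were seen. CCL26, a CC chemokine gene whose human counterpart attracts eosinophils, had 2918, 2897 and 3078 TPM, on 37147 reads, and ranked 58. LBP, which encodes the protein that passes bacterial lipopolysaccharide to its receptor, had 1080.2, 1108 and 1083 TPM. The membrane protein gene ITM2A had 1586 TPM and DEF6, an exchange factor for small GTPases, had 1279.9 TPM. FABP4, a fatty acid carrier of macrophages and fat cells, had 2236, 2075 and 2175 TPM. OAZ1, an inhibitor of polyamine synthesis, was at 3569 TPM, and the redox proteins TXN and PRDX1 were at 2604 and 1961 TPM.

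MYC, the growth-promoting transcription factor, was among the 100 most abundant genes, at rank 99. It had 1842, 1904 and 1647 TPM, a mean of 1798 ± 134 TPM on 115877 reads, with the lowest value in mock replicate 3. Reads of a viral copy of myc and of the chicken gene cannot be told apart in these counts. MAX, the partner with which MYC binds DNA, had 17.9, 19.7 and 19.3 TPM, so that MYC had 94.8 ± 8.83 times the level of MAX (SD over the 3 libraries). The MYC antagonists MXI1, MXD3, MXD4, MXD1 and MNT had 23.4, 17.6, 13.5, 11.2 and 7.81 TPM. MYCN had 1 read in the 3 libraries, while MYCL had 5.07 TPM. The nucleolar proteins NPM1 and NCL, which serve ribosome assembly, had 2045 and 1310.4 TPM, and ODC1, the first enzyme of polyamine synthesis, had 209.9 TPM.

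Genes of the dividing cell were expressed throughout. Of 36 listed genes of the cell cycle and of replication, 34 had at least 1 TPM, against 68.3% of all genes, and the median was 76.9 TPM, against 8.15 TPM over all genes. PCNA, the sliding clamp of DNA polymerase, had 484, 444 and 453 TPM. CDK1, the kinase that drives entry into mitosis, had 434, 415 and 409 TPM, and the gene listed as the cyclin CCNB2, which RefSeq names CCNB1, had 291, 294 and 283 TPM. MKI67, the proliferation antigen, had 58.2, 55.2 and 49.7 TPM. Among the D cyclins CCND3 led with 67.4 TPM, above CCND1 with 18.4 and CCND2 with 14.9 TPM, and CCNE2 stood at 11.2 TPM while CCNE1 stood at 0.76 TPM. The inhibitors were uneven. CDKN2A, a tumour suppressor locus, had 182, 191 and 195 TPM, and CDKN2C and CDKN1B had 35.1 and 15.7 TPM. Lower still, CDKN1A had 3.47, 3.78 and 4.01 TPM, CDKN2B had 2.25 TPM and CDKN1C had 0.16 TPM.

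The listed transcription factors of the myeloid line were nearly all on. Of 36 listed factors found, 35 had at least 1 TPM, against 68.3% of all genes. At least 100 TPM was reached by 7, ERG among them, against 10.5% of all genes, and the median was 30.3 TPM. This list, like the others, was drawn up with earlier results of these data known, so its shares are no test of cell identity. LMO2, an adaptor of early blood cell transcription complexes, led with 433, 422 and 422 TPM, above SPI1. ID2, an inhibitor of helix-loop-helix factors, had 295 TPM, and IRF8, which directs progenitors to monocytes, had 239, 246 and 228 TPM. Beside ERG, its ETS relative FLI1 had 108, 103 and 96.4 TPM. The C/EBP factors were ordered CEBPA with 98.4 ± 3.56 TPM, CEBPB with 68.7 ± 3.92 TPM, CEBPG with 42.4 ± 2.13 TPM and CEBPD with 24.6 ± 0.72 TPM, with no overlap between neighbours. MAF, a factor of mature macrophages, had 4.03 ± 0.26 TPM. The lipid-sensing nuclear receptors NR1H3 and PPARG had 91.2 ± 4.14 and 78.2 ± 7.19 TPM. MYB, a factor of progenitors, had 15.1, 12.2 and 11.1 TPM, highest in mock replicate 1. RUNX1 had 13.6 ± 0.85 TPM and RUNX3, with 10 reads in all, 0.08 TPM, the only listed factor under 1 TPM.

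Surface receptors ranged from among the highest macrophage genes to single reads. Of 43 listed receptors and surface-linked proteins found, 32 had at least 1 TPM, a share near the 68.3% of all genes. At least 100 TPM was reached by 7, against 10.5% of all genes. The median was 13.3 TPM, against 8.15 TPM over all genes. ITGB1, the shared beta chain of many integrins, had 271 ± 11.2 TPM, and LAPTM5, a lysosomal membrane protein of blood cells, had 668, 659 and 653 TPM. MARCO, a scavenger receptor for bacteria and particles, had 561, 549 and 503 TPM. CSF3R, the receptor of granulocyte colony-stimulating factor, had 215, 224 and 228 TPM, below CSF1R in each library, and CSF2RA, a chain of the receptor of granulocyte-macrophage colony-stimulating factor, had 68.7, 62.1 and 61.1 TPM. The partner chain CSF2RB had only 2.40, 1.75 and 1.88 TPM. The progenitor receptors FLT3 and KIT had 0.18 and 0.16 TPM. TREM2, a lipid-sensing receptor, had 83.0 ± 3.14 TPM. FCER1G, a signalling adaptor, was listed at 80.3, 123.4 and 119 TPM, but these values rest on 11, 17 and 18 reads, so its level and the low value in mock replicate 1 are poorly fixed.

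Receptors known from tissue macrophages were uneven. MERTK, a kinase receptor for the uptake of dying cells, had 32.7, 32.3 and 33.5 TPM, the scavenger receptor STAB1 had 13.7, 13.6 and 12.6 TPM and TIMD4, a receptor for phosphatidylserine, had 3.91, 3.09 and 4.47 TPM. MRC1, CD163 and CX3CR1 were under 1 TPM in each library. MRC1, the mannose receptor, had 0.38, 0.36 and 0.19 TPM. CD163, the haemoglobin scavenger receptor, had 0, 0 and 0.03 TPM, on 1 read in the 3 libraries, and RefSeq gives the gene listed as CD163 no such name. CX3CR1, a chemokine receptor of monocytes, had 0.51, 0.62 and 0.44 TPM. Among leukocyte homing genes of the same list, the integrin chain gene ITGA4 had a summed estimate of 7.53 reads and the chemokine receptor gene CCR7 had 3 reads. CCR2, a chemokine receptor of monocytes like CX3CR1, was present with 17.9 ± 1.61 TPM. CD14, a co-receptor for lipopolysaccharide, had 8.17, 9.50 and 7.38 TPM, which was low beside CSF1R and MARCO.

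**Figure D2:**
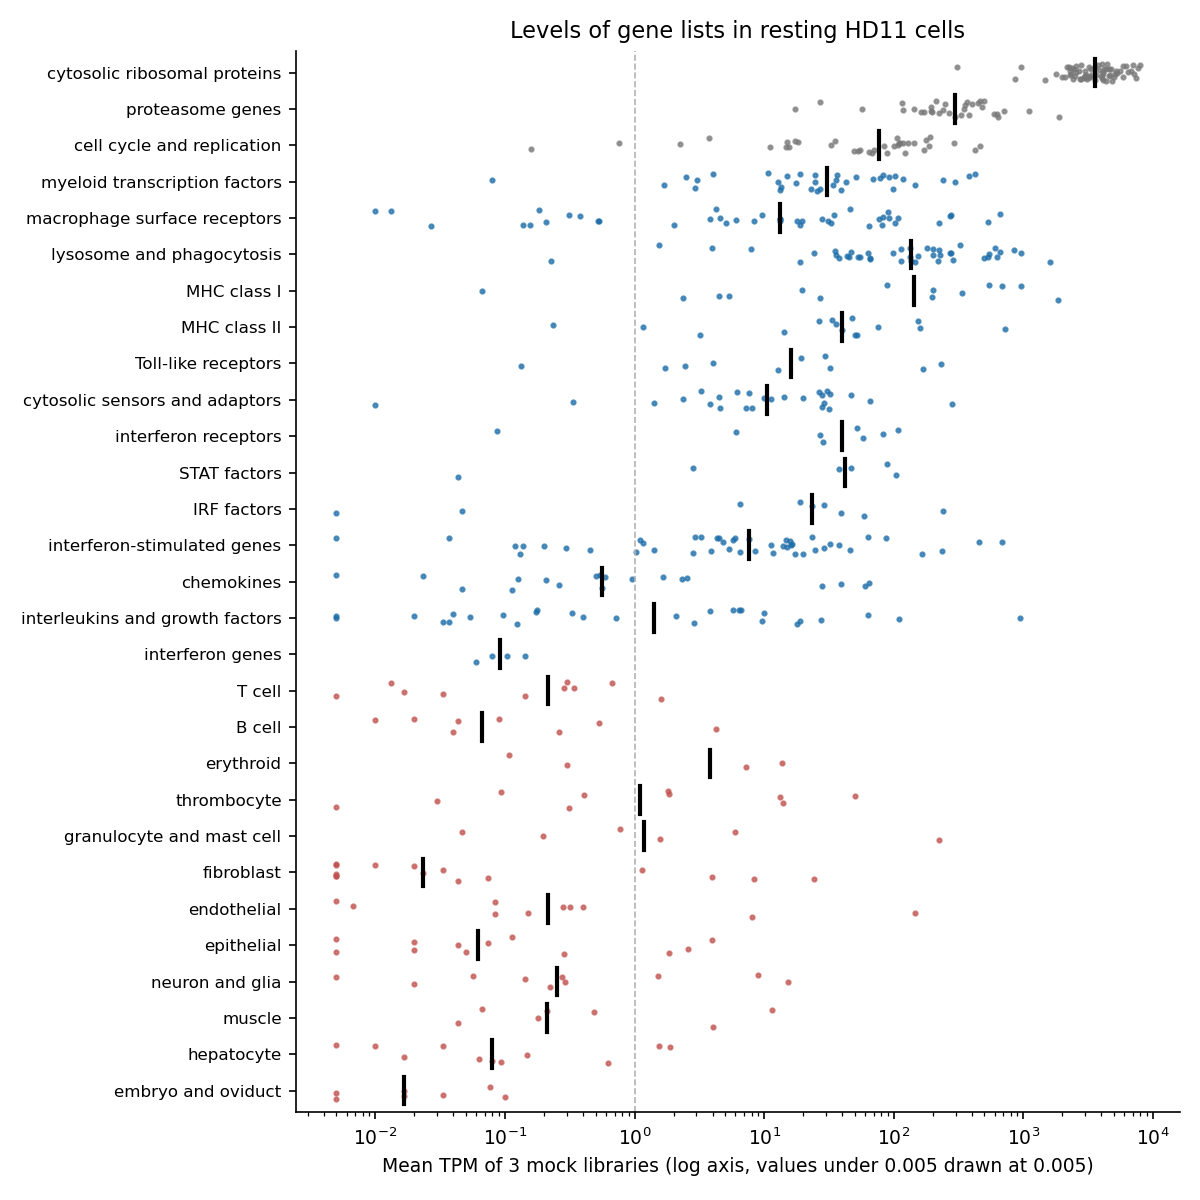
Mean TPM of the 3 mock libraries (log axis) for each listed gene found, 1 point per gene, in rows by list; black bars are list medians, grey points are housekeeping lists, blue points macrophage, sensing and interferon lists, and red points lists of other cell types. Points jitter up and down within a row only to separate them. Ribosomal protein genes lie around 3590.3 TPM, the lysosome list around 136 TPM, and most genes of other cell types lie left of the dashed line at 1 TPM.

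The lysosomal system stood high as a whole. Of 44 genes found for lysosomes, phagocytosis and the oxidative burst, 43 had at least 1 TPM and 26 at least 100 TPM. Of all listed genes, 68.3% and 10.5% reached these levels. The list median was 136 TPM, against 8.15 TPM over all genes. CTSS, a cathepsin that trims the class II invariant chain, led with 1561, 1604 and 1646 TPM. It was followed by PSAP, the precursor of the saposins, with 989, 985 and 922 TPM, the tetraspanin gene CD63 with 816, 845 and 877 TPM and the cholesterol-binding protein gene NPC2 with 642, 663 and 666 TPM. The cathepsin genes CTSA, CTSB and CTSD had 322, 288 and 276 TPM, well above CTSK with 24.3 TPM. ACP5, the tartrate-resistant acid phosphatase, had 204, 219.9 and 239 TPM.

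Subunits of the phagocyte NADPH oxidase were unequal. The catalytic subunit gene CYBB had 192, 185 and 169 TPM and its partner CYBA had 42.4, 42.4 and 46.4 TPM. Of the cytosolic subunits, NCF1 had 134 ± 3.71 TPM and NCF4 had 114 ± 5.52 TPM. RAC2, the GTPase of the complex in blood cells, had 492 ± 9.89 TPM. SLC11A1, a metal transporter of the phagosome linked to resistance to intracellular bacteria, had 18.9 ± 0.66 TPM.

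Secreted products were uneven too, with 28 of 39 found at or above 1 TPM, a share near the 68.3% of all genes. The complement genes C1QB, C1QA and C1QC, which macrophages express, had 262 ± 2.98, 239.9 ± 2.52 and 156 ± 1.19 TPM. SPP1, the matrix protein osteopontin, had 134, 139.6 and 143 TPM, and AVD, which encodes the biotin-binding protein avidin, had 64.7, 62.3 and 68.5 TPM. The calcium-binding protein gene S100A10 had 2344, 2562 and 2469 TPM on 4883 reads, the galectin gene LGALS1 had 856 TPM, and the annexin genes ANXA1 and ANXA2 had 665 and 522 TPM. LYZ, the lysozyme gene often taken as a macrophage mark in birds, had 1, 1 and 0 reads and a mean of 0.23 TPM. Antimicrobial peptide genes were low too: AvBD1 had 6.63, 4.27 and 7.11 TPM on 34 reads, AvBD2 had 1 read, CATH1 had 1.72, 1.13 and 0.51 TPM on 17.8 reads, and CAMP, which RefSeq names CATH2, had no read.

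Genes of both antigen presentation pathways were expressed at rest, at uneven levels. In the class I list 13 of 14 genes found had at least 1 TPM, against 68.3% of all genes. The list median was 143 TPM. B2M, the light chain, had 680.0, 680.4 and 682 TPM. BF2, the dominant of the chicken's class I heavy chain genes, had 527, 544 and 561 TPM and its neighbour BF1 had 196, 196 and 209.5 TPM, a ratio of 2.72 ± 0.055 (SD over the 3 libraries). The peptide transporter chains were lower, TAP2 at 19.7, 19.0 and 20.4 TPM and TAP1 at 4.92, 5.15 and 5.85 TPM, and NLRC5, an activator of class I genes, was at 2.62, 2.63 and 1.85 TPM. The endoplasmic chaperone genes CALR and PDIA3 led the list with 1845 and 956 TPM. With CANX at 336 TPM and PSME3 at 197 TPM they count towards the list median, which is not that of class I chains alone.

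The class II list also holds the promoter-binding factors NFYC, NFYB, NFYA and CREB1, with 159.9, 35.6, 26.7 and 14.1 TPM. The regulatory factor genes RFXANK, RFXAP and RFX5, with 51.9, 47.2 and 33.5 TPM, are in it too. In this list, 14 of 15 genes found had at least 1 TPM, against 68.3% of all genes, with a median of 39.9 TPM. Count and median are thus not those of class II chains alone. After CD74, the beta chain gene BLB2 had 139, 163 and 161 TPM, while BLB1 had 0.80, 1.16 and 1.55 TPM. BF1 and BF2, and likewise BLB1 and BLB2, are near-identical pairs, so how their reads were divided is uncertain. The alpha chain gene BLA was listed at 54.5, 55.0 and 39.9 TPM on only 14 reads, because 1 read of it was worth 10.7 TPM. DMB2, which helps load peptides, had 71.0, 76.3 and 80.7 TPM, and DMB1 was listed at 0, 0.54 and 0.16 TPM on 8 reads. CIITA, the activator of class II genes, had 3.36, 3.20 and 3.11 TPM.

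Toll-like receptors, which bind microbial molecules at the surface or in endosomes, ranged from over 200 TPM to under 1 TPM. Of 10 found, 9 had at least 1 TPM, against 68.3% of all genes, and the median was 16.0 TPM. TLR2A, a receptor for bacterial lipoproteins, had 237, 235 and 225 TPM. TLR4, the lipopolysaccharide receptor, had 172, 169 and 161 TPM, and its partner LY96 had 165, 159 and 159 TPM. TLR2A and TLR4 stood above every other receptor of the list in each library.

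Next came TLR1B with 31.3, 34.9 and 31.0 TPM and TLR7, for single-stranded RNA, with 29.2, 30 and 29.2 TPM. TLR21, the receptor that birds use for unmethylated CpG DNA, had 18.9, 19.8 and 18.6 TPM, and TLR15, found in birds and reptiles, had 13.3, 13.8 and 11.4 TPM. TLR5, the flagellin receptor, had 3.93, 4.61 and 3.48 TPM, TLR1A 2.84, 2.10 and 2.41 TPM and TLR2B 1.81, 1.80 and 1.55 TPM. TLR3, for double-stranded RNA, was lowest at 0.24, 0.09 and 0.07 TPM, on 15 reads over the 3 libraries. No neighbours in this order overlapped between libraries, although TLR1B and TLR7 were close.

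The adaptors that carry Toll-like receptor signals all had at least 1 TPM among the 16 found, against 68.3% of all genes. The lowest was TRAF3, a ubiquitin ligase of the pathway, at 8.10 TPM. MYD88, the adaptor of most of these receptors, had 38.1, 36.8 and 35.3 TPM and TICAM1, the adaptor that leads to interferon genes, had 18.8, 16.6 and 17.1 TPM. The inhibitor TOLLIP had 113, 106 and 105 TPM. UNC93B1, which brings receptors to endosomes, had 23.5 TPM, and HSP90B1, their chaperone, had 490.2 TPM.

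Cytosolic sensors of RNA and DNA were moderate to low. Of 26 sensors, adaptors and kinases found, 24 had at least 1 TPM, against 68.3% of all genes, with a median of 10.6 TPM. DDX3X, a helicase with many roles in translation, led the list with 294, 286 and 264 TPM. IFIH1, the RNA sensor MDA5, had 8.22, 7.22 and 7.29 TPM, and its relative DHX58 had 1.30, 1.59 and 1.36 TPM. Their mitochondrial adaptor MAVS had 4.49, 4.59 and 4.56 TPM. The DNA sensor gene listed as MB21D1, which RefSeq names CGAS, had 29.1, 28.3 and 27.0 TPM, while its adaptor TMEM173, also known as STING, had 3.96, 3.48 and 3.92 TPM. TBK1, the kinase that activates interferon regulatory factors, had 48.0, 48.8 and 43.0 TPM, above IKBKE at 7.25, 7.44 and 7.20 TPM. The ubiquitin ligase gene TRIM25 had 11.6, 12.2 and 9.81 TPM and the helicase gene ZNFX1 had 33.0, 33.2 and 31.0 TPM. The inflammasome genes CASP1 and NLRPL, which RefSeq names NLRP3, had 26.3 ± 1.37 and 6.22 ± 0.51 TPM, and NLRC3 had 2 reads.

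The type I interferon receptor had its chains at close levels. IFNAR1 had 58.8, 59.2 and 55.4 TPM (57.8 ± 2.12 TPM) and IFNAR2 had 56.1, 49.2 and 49.8 TPM (51.7 ± 3.80 TPM), a ratio of 1.12 ± 0.077, and the libraries of the pair overlapped. Of the chains for interferon gamma, IFNGR2 had 113, 108 and 104 TPM and IFNGR1 30.1, 30.2 and 24.5 TPM, without overlap. IL10RB, a chain shared by the interleukin 10 and type III interferon receptors, had 28.1, 27.6 and 24.8 TPM and overlapped with IFNGR1, while IL10RA had 5.53, 6.10 and 6.43 TPM. IL22RA2, the soluble decoy receptor of interleukin 22, had 86.0, 79.2 and 80.5 TPM. IL20RA had 6 reads. The median of the 8 genes found was 40.0 TPM.

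Among other cytokine receptors, 18 of 24 had at least 1 TPM, a share near the 68.3% of all genes. IL2RG, the common gamma chain, led with 519, 541 and 546 TPM, followed by IL1RAP, the accessory chain of the interleukin 1 receptor, with 151, 144 and 131 TPM. The chain IL1R1 itself had 1.82, 2.02 and 1.96 TPM, below the decoy receptor IL1R2 with 12.9, 12.9 and 12 TPM. IL18R1 had 1 read and IL18RAP none, so both chains of the interleukin 18 receptor were at the floor. IL6R and IL6ST, the chains for interleukin 6, had 38.4 ± 1.34 and 17.9 ± 1.76 TPM. TNFRSF1B had 69.2 ± 4.10 TPM and TNFRSF1A 27.3 ± 1.36 TPM.

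**Figure D3:**
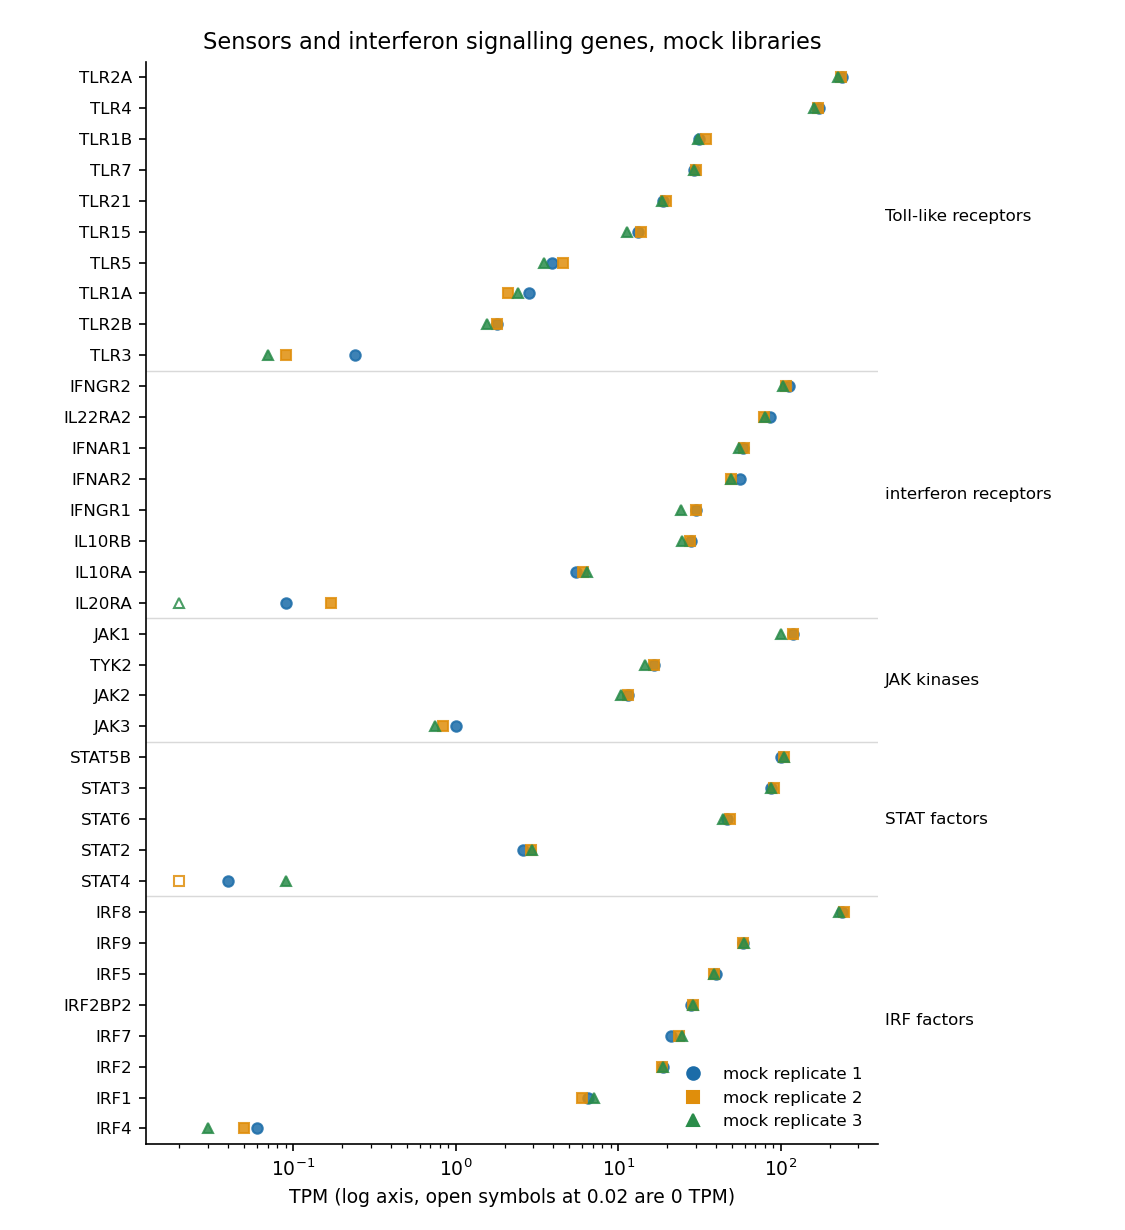
TPM in each mock library (log axis) for Toll-like receptors, interferon receptor chains and related receptors, JAK kinases, STAT factors and IRF factors described here, ordered by mean TPM within each block; symbols mark mock replicates 1, 2 and 3, and open symbols at 0.02 stand for 0 TPM. For most genes the 3 symbols nearly coincide, and they spread for TLR3, IL20RA, STAT4 and IRF4, which rest on few reads.

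The kinases and STAT factors behind these receptors were uneven. JAK1 had 119.7, 119.8 and 100.4 TPM, TYK2 16.5, 16.6 and 14.7 TPM, JAK2 11.4, 11.5 and 10.4 TPM and JAK3 1, 0.84 and 0.75 TPM, with no overlap between neighbours and with mock replicate 3 lowest for each. STAT5B had 100.4, 105 and 105 TPM and STAT3 87.8, 90.5 and 86.7 TPM. STAT2, a part of the transcription complex that type I interferon activates, had only 2.61, 2.91 and 2.97 TPM. STAT6, which serves interleukin 4, had 47.1, 49.0 and 44.2 TPM, and STAT4 had 6 reads. STAT5B, STAT3, STAT6, STAT2 and STAT4 followed each other in this order without overlap between libraries. RefSeq names the gene listed as STAT5B as STAT5A.

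Interferon regulatory factors were led by IRF8. The gene listed as IRF9, for which RefSeq gives IRF10 as a synonym, had 58.4, 59.1 and 60.0 TPM. IRF5 had 40.2, 38.8 and 38.9 TPM. IRF7, the factor that turns on interferon genes in birds, had 21.2, 23.8 and 24.8 TPM, lowest in mock replicate 1, and IRF1 had 6.53, 5.99 and 7.13 TPM. IRF2, often a counterpart of IRF1, had 19.0, 18.7 and 18.8 TPM. IRF4 had a summed estimate of 9.57 reads. The name pattern also took in IRF2BP2, which encodes a partner protein of IRF2, with 28.3, 29.1 and 28.8 TPM.

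Subunits and kinases of NF-kappaB were moderate, with 7 genes found between 12.5 and 57.6 TPM. CHUK, a kinase of the pathway, led with 57.6 ± 1.87 TPM, and the inhibitor NFKBIB had 42.0 ± 4.68 TPM. The subunit genes REL and NFKB1 had 35.0 ± 1.18 and 32.8 ± 0.95 TPM, and NFKB2 and RELA had 14.8 ± 0.41 and 12.5 ± 0.54 TPM. Of 23 inhibitors found, 19 had at least 1 TPM, against 68.3% of all genes. The phosphatase gene PTPN6 had 265, 262 and 255 TPM, the highest of the list, followed by its relatives PTPN2, PTPN1 and PTPN11 with 112, 62.2 and 55.1 TPM. NFKBIA, which holds NF-kappaB in the cytosol, had 28.5, 26.4 and 28.2 TPM, and TNFAIP3 had 6.19, 5.80 and 5.86 TPM. SOCS1 had 10.6, 7.78 and 6.67 TPM and SOCS3 had 0.99, 1.15 and 0.85 TPM, whereas SOCS2 had 16.6, 20.7 and 19.5 TPM. CISH, a relative of the SOCS genes, had 0.38 TPM, and TNIP3 had no read.

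Interferon-stimulated genes were not uniformly silent in unstimulated cells. Of 47 found, 39 had at least 1 TPM, 22 had at least 10 TPM and 4 had at least 100 TPM, and the median was 7.58 TPM, close to the 8.15 TPM over all genes. Of all listed genes, 68.3% had at least 1 TPM, 47.0% at least 10 TPM and 10.5% at least 100 TPM. At the top, after B2M, LY6E had 449, 454 and 457 TPM, the aminopeptidase gene LAP3 had 241, 239 and 231 TPM and IFITM3, which blocks virus entry, had 163, 165 and 166 TPM. IFI35 had 87.3, 87.4 and 85.9 TPM, its partner NMI had 45.1, 47.1 and 45.0 TPM and the nucleotide hydrolase gene SAMHD1 had 63.5, 64.3 and 60.8 TPM.

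A middle band held regulators and RNA-acting factors. USP18, a protease that restrains the type I receptor and that RefSeq names USP41, had 25.4, 24.9 and 24.3 TPM. ADAR, which edits double-stranded RNA, had 28.6, 29.2 and 28.9 TPM. IFIT5, which binds RNA ends, had 18.1, 18.7 and 23.4 TPM on 1301 reads, highest in mock replicate 3. PARP14, PARP12 and PARP9 had 16.3 ± 0.76, 14.7 ± 0.52 and 11.7 ± 0.57 TPM, and DTX3L, the partner of PARP9, had 15.8 ± 0.24 TPM. ZC3HAV1, the zinc finger antiviral protein, had 16.5, 14.7 and 13.7 TPM. PML, the organiser of nuclear bodies, had 17.2 ± 0.85 TPM, the cap methyltransferase gene CMTR1 had 14.0 ± 1.25 TPM and EPSTI1 had 16.2 ± 0.96 TPM.

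Below 10 TPM lay many genes best known for acting on viruses or their RNA. OASL, an oligoadenylate synthetase-like protein, had 4.36, 6.83 and 6.76 TPM, lowest in mock replicate 1. IFI6, for which RefSeq gives ISG12-2 as a synonym, had 6.15, 8.29 and 11.3 TPM on 10, 14 and 20 reads, counts so small that the spread is poorly fixed. IFI27L2 had 2.72, 6.16 and 4.53 TPM. CMPK2 had 4.33 ± 0.30 TPM, EIF2AK2, the kinase PKR, had 3.27 ± 0.21 TPM, and TRANK1 had 2.92 ± 0.045 TPM. The death ligand TNFSF10 had 5.79 ± 0.089 TPM and the ubiquitin ligase RNF213 had 3.86 ± 0.41 TPM. HELZ2, GVINP1 and IFITM5 had 1.02 ± 0.085, 1.11 ± 0.026 and 1.15 ± 0.41 TPM, the last on 36 reads.

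At the bottom, SAMD9L had 0.45, 0.47 and 0.44 TPM. MX1, the dynamin-like GTPase, had 0.34, 0.37 and 0.18 TPM on 24 reads, DDX60 had 0.20 TPM, XAF1 0.13 TPM and IFITM10 0.12 TPM. CD274, the checkpoint ligand, had 0.08, 0.24 and 0.09 TPM. RSAD2, which encodes the enzyme viperin, had 1 read and the gene listed as IFITM1 none. Across the 39 members averaging 1 CPM or more (reads scaled to library size, without length), the median log2 ratio to the mean of the 3 libraries was -0.01, 0.01 and 0.00 in mock replicates 1, 2 and 3, so no library was high or low for the list as a whole.

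**Figure D4:**
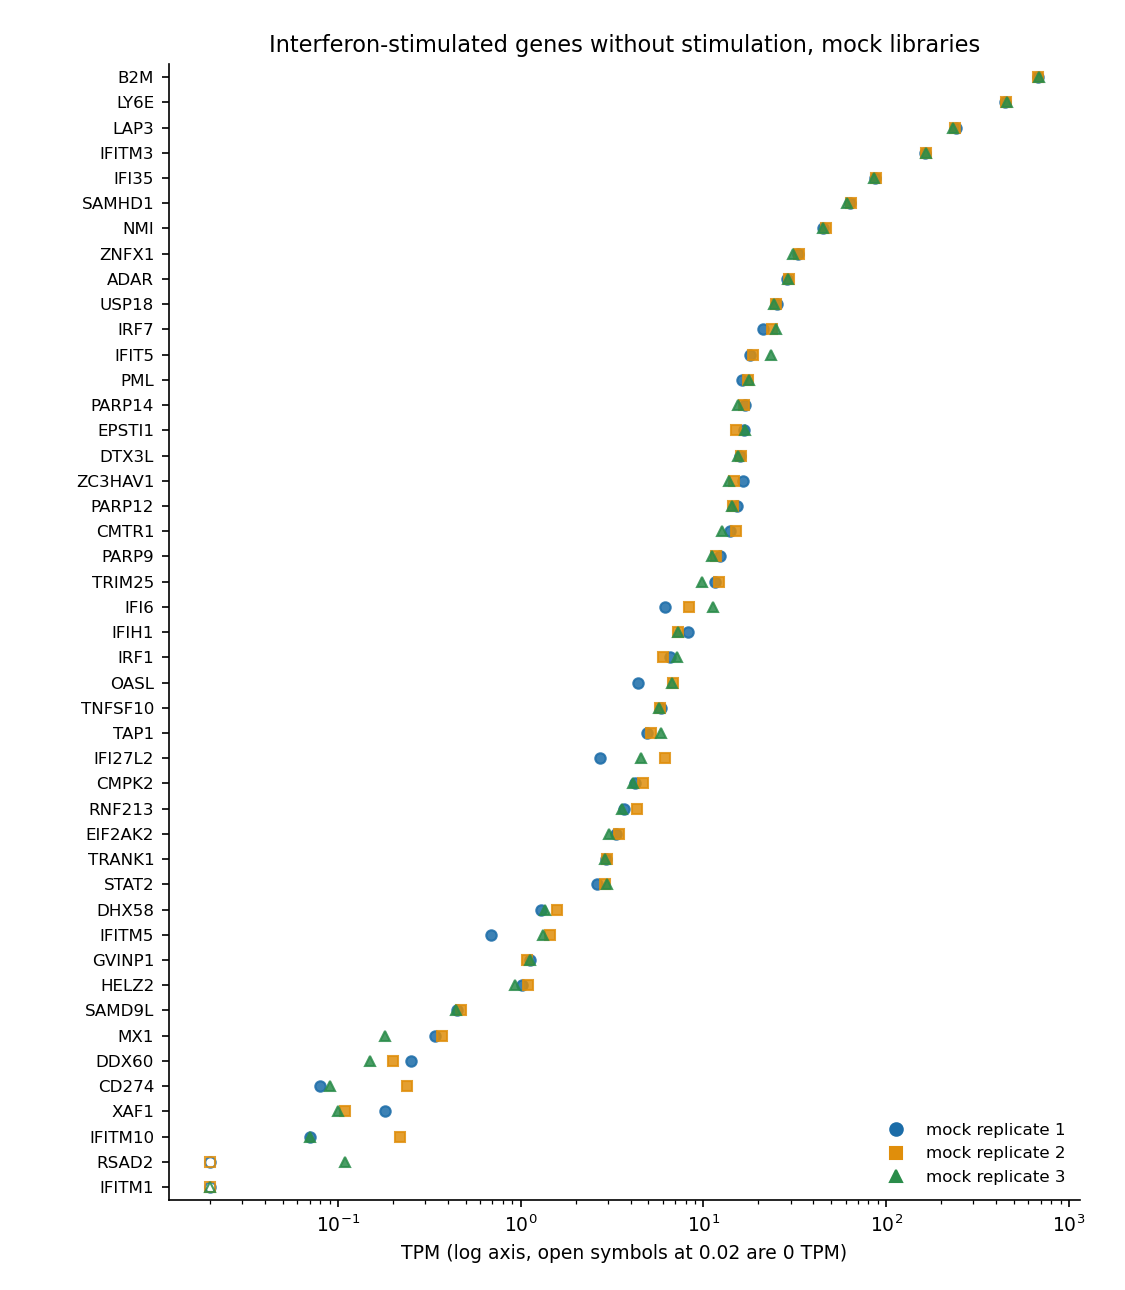
TPM in each mock library (log axis) for the interferon-stimulated genes described here, ordered by mean TPM; symbols mark mock replicates 1, 2 and 3, and open symbols at 0.02 stand for 0 TPM. Levels run from B2M at 681 TPM to IFITM1 with no read; the libraries stand apart for IFI6, OASL and IFI27L2 and lie close together for most genes above 10 TPM.

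The interferon genes found were at the floor, but 7 of the 11 entries sought were not matched and so were not assessed. Of the 4 found, IFNA3 had a summed estimate of 2.24 reads, IFNW1 had 1, IFNKL1 3 and IFNG 3 over the 3 libraries, and a gene listed as IFNL3L, named after its value was seen, had none. Over 47134082 counts, 0 reads allow up to 3 reads, or 0.064 CPM, by counting error alone.

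Of 28 interleukin and growth factor genes found, 14 had at least 1 TPM, against 68.3% of all genes. Their median was 1.41 TPM, against 8.15 TPM over all genes. MIF, which cells store and release, led with 921, 968 and 956 TPM. TGFB1 and TGFB3, which dampen inflammation, had 109 ± 4.46 and 63.1 ± 2.66 TPM. IL18 had 27.9, 27.3 and 26.7 TPM and CSF1, the ligand of CSF1R, had 17.9, 19.4 and 16.8 TPM. IL1B had 5.83, 6.33 and 7.63 TPM and IL12B 4.41, 3.43 and 3.59 TPM. IL6 had 0.75, 0.74 and 0.67 TPM, IL10 had 2 reads, IL23A had 1 read, CSF3 had 6 reads and CSF2 none.

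Besides CCL26, 7 of 19 listed chemokine genes found had at least 1 TPM, against 68.3% of all genes. The list median was 0.56 TPM. CCLI8 had 56.2, 61.2 and 62.8 TPM on 929 reads, and CCLI7 had 29.7, 25.1 and 29.6 TPM on 436 reads. CCAH221 and CCL5 were listed at 64.0 and 39.0 TPM but rest on 28 and 17 reads, since 1 read was worth 6.86 and 6.88 TPM. A separate entry, listed as gene-CCL4, had 127, 139 and 108 TPM on 294 reads, and CCLL4 reached a mean of 1.66 TPM on 1 read. IL8L2 and IL8L1, counterparts of interleukin 8, had 3.02, 2.51 and 2.06 and 0.45, 0.53 and 0.69 TPM. CCL19 had 7 reads and CXCL13 none.

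Enzymes of inflammation were uneven. NOS2, which makes nitric oxide, had 5.47, 5.16 and 4.94 TPM, ACOD1, which makes itaconate, had 4.41, 4.04 and 3.84 TPM, and PTGS2, the inducible cyclooxygenase, had 1.45, 1.25 and 1.02 TPM. The genes of leukotriene synthesis were higher, LTA4H at 435 ± 11.4 TPM, ALOX5AP at 295 ± 3.75 TPM and ALOX5 at 96.8 ± 4.90 TPM. HMOX1, the haem oxygenase, had 356, 368 and 351 TPM and SOD2 had 199 ± 1.35 TPM.

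Glycolysis genes were among the most abundant. Of 21 glycolysis genes found, 8 had at least 1000 TPM, against 0.99% of all genes. LDHA had 4.41 ± 0.19 times the level of LDHB, which had 1994 TPM. PGK1 had 2621 TPM and PKM 2355 TPM, under the names of the deposited table. The main aldolase gene was ALDOC with 1554, 1614 and 1662 TPM, and the hexokinases were HK1 with 105 ± 5.65 TPM and HK2 with 54.5 ± 1.34 TPM. FABP5 and FABP3, carriers like FABP4, had 1052 and 662 TPM. Enzymes of cholesterol synthesis such as FDFT1, LSS and SQLE had 352 ± 7.71, 125 ± 1.98 and 112 ± 5.40 TPM, while ABCA1, which exports cholesterol, had 1.11 ± 0.27 TPM. TFRC, the transferrin receptor, had 139, 132 and 107 TPM and SLC40A1, the iron exporter, 17.5 ± 0.83 TPM.

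Markers of other cell types were mainly under 1 TPM. Over 12 lists, 110 different genes were found, of which 82 were under 1 TPM, 53 under 0.1 TPM and 10 had no read. Their median was 0.11 TPM. Of all listed genes, 68.3% had at least 1 TPM and 81.3% at least 0.1 TPM. Other blood lineages were mixed, with 5 of 10 thrombocyte, 2 of 4 erythroid and 3 of 6 granulocyte and mast cell genes at or above 1 TPM. In the erythroid list 17 of 21 entries were not matched, and in the granulocyte and mast cell list 12 of 18. Of T cell genes only CD247 passed 1 TPM, at 1.97, 1.28 and 1.54 TPM, and CD3E had 0.43, 0.21 and 0.21 TPM on 16 reads. Of B cell genes only BLK did, at 4.35, 4 and 4.41 TPM, and CD79B had 1 read. The globin gene HBBA had 0.31, 0.30 and 0.29 TPM on 3 reads. COL1A1, VWF and THY1 had no read, ITGA2B had 4 reads and ALB had 1.86, 2.08 and 1.66 TPM.

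Of these 110 genes, 9 had at least 10 TPM, against 47.0% of all listed genes. Besides ERG and CSF3R, the listed genes of other cell types at or above 10 TPM were TBXAS1 with 50.1 ± 2.10 TPM, FAP with 24.1 ± 2.35 TPM, MBP with 15.3 ± 1.69 TPM, F13A1 with 14.0 ± 1.25 TPM, GYPC with 13.6 ± 3.50 TPM, TUBB1 with 13.3 ± 1.16 TPM and TNNI2 with 11.5 ± 1.03 TPM. ELAVL4, a neuronal RNA-binding protein gene, had 8.97 ± 0.64 TPM and the smooth muscle actin gene ACTA2 had 8.27 ± 0.73 TPM. TBXAS1, thromboxane synthase, and F13A1, a clotting factor subunit, are also known from human monocytes and macrophages. Endothelial genes other than ERG were low, with PECAM1, which leukocytes also carry, at 8.11 ± 0.55 TPM, and KDR, TEK and FLT1 at 0.083, 0.32 and 0.28 TPM. TAL1, a partner of LMO2 in blood progenitors, had 7.19, 7.71 and 6.98 TPM.

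Silent genes can be counted only among those listed, since every listed gene had a read in at least 1 of the 6 libraries. With no read in the mock libraries, 558 genes (3.74%) remained, which are listed only because of reads in the IFN-beta libraries, and genes that are not listed were not analysed here. Of the 558 genes, 338 had at most 1 read in those libraries and the highest had 19. Unnamed loci were 28.3% of these genes and 11.5% of all listed genes. Developmental and tissue families were low among listed members. None of 11 WNT ligand genes and none of 10 GABA-A receptor genes had 1 TPM, nor did 13 of 14 keratin genes, 12 of 13 FGF genes and 34 of 40 collagen genes. Among all listed genes, 68.3% had at least 1 TPM. Of 15 HOX genes, 4 had at least 1 TPM and all were of the A cluster, led by HOXA7 with 39.0, 38.9 and 37.4 TPM and followed by HOXA4 and HOXA9 with 7.54 and 4.37 TPM, while HOXA6 and HOXA11 had no read. PAX6, a factor of eye and brain, had 12.6, 12.8 and 12.1 TPM and PAX3 and PAX7 had no read. Among potassium channel genes KCNAB2 stood out with 213, 217 and 216 TPM. Of these 65 genes 35 were under 0.1 TPM, while 81.3% of all listed genes had at least 0.1 TPM.

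The 3 mock libraries lay close together, but mock replicate 3 stood somewhat apart. Across genes, the chi-square of the counts divided by its degrees of freedom was 1.67 between mock replicates 1 and 2, 4.48 between 1 and 3 and 3.09 between 2 and 3, where counting noise alone gives 1. The biological coefficient of variation fitted by edgeR, as a value common to all genes kept, was 3.80%. It was 2.15% without mock replicate 3, 3.74% without mock replicate 1 and 5.06% without mock replicate 2. The difference went with gene length, as implied by the ratio of counts to TPM. Genes were ranked by this length and cut into 4 equal bins. In the bin of longest genes the median log2 ratio of CPM to the mean CPM of the 3 libraries was -0.06 in mock replicate 3. It was 0.04 and 0.02 in mock replicates 1 and 2. In the bin of shortest genes it was 0.06 in mock replicate 3, against -0.04 and -0.01. The median level was 53.65 TPM in this bin and 10.28 TPM in that of longest genes, so length and level cannot be told apart. All 68 ribosomal protein genes lie in the bin of shortest genes. In CPM all of them were above their mean in mock replicate 3, with medians of -0.07, -0.02 and 0.09. In TPM, which is scaled by length, this did not hold for each gene. RPS16, for example, had 7134, 7267 and 7124 TPM, and the family held 25.5, 25.7 and 26.4% of TPM. For JAK1, ERG and TFRC, which were lowest in mock replicate 3, the part of the pattern with length was not tested.

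**Figure D5:**
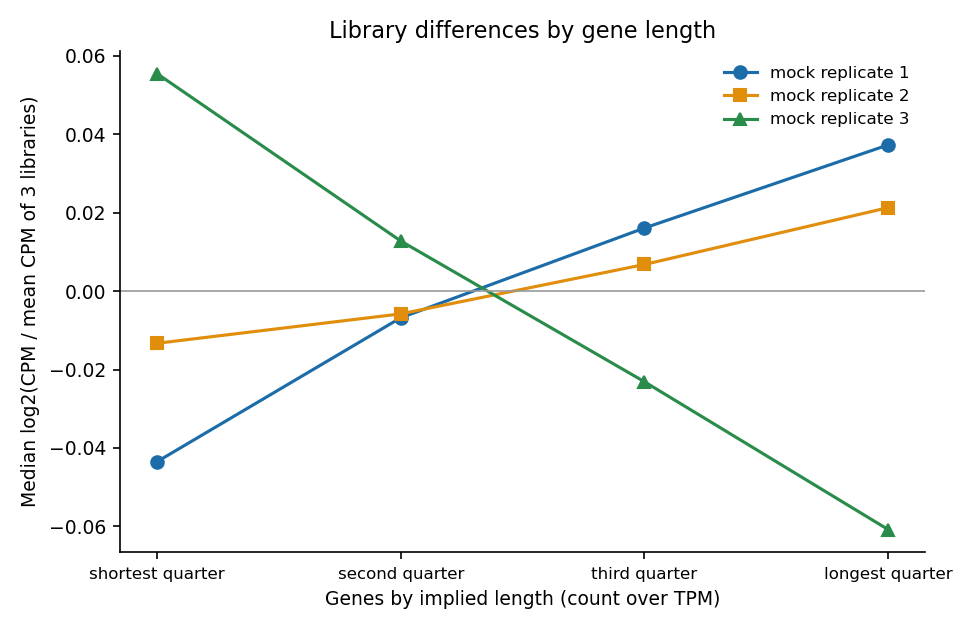
Median log2 ratio of CPM to the mean CPM of the 3 mock libraries for genes in 4 bins of implied length, with a line per library. Mock replicate 3 runs from 0.06 in the bin of shortest genes to -0.06 in that of the longest, while mock replicates 1 and 2 run the other way. The lines are not independent, since all are ratios to the mean of the same 3 libraries.

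Of 9251 genes averaging 5 CPM or more, 5 had a biological coefficient of variation over 10%, and the median was 3.92%. In this fit edgeR draws the value of each gene towards those of other genes, so it is not the gene's own observed spread. For OASL the fit gave 8.44%, while the SD of its TPM was 23.5% of the mean. PON2, a lactonase gene, was the most variable, with 1.1, 0.71 and 2.24 TPM on 72.1, 46.6 and 151 reads, highest in mock replicate 3. CEP68, a centrosome protein gene, had 3.32, 3.63 and 5.10 TPM, and MT, a metallothionein gene that binds zinc and copper, had 16.1, 17.8 and 28.0 TPM, both highest in mock replicate 3. USF3 had 2.87, 2.51 and 1.63 TPM, lowest in mock replicate 3, and ITPKA had 3.54, 5.38 and 2.98 TPM, highest in mock replicate 2. The estimated counts of USF3 and ITPKA were whole numbers. Those of PON2, CEP68 and MT were not, as for 2191 of the 14903 listed genes. Whether the division of reads between loci adds to the spread of such genes was not tested. OASL was the only interferon-stimulated gene of the list among the 15 most variable, and GYPC was also among them. CYP2R1, a vitamin D hydroxylase gene, and the transcription factor gene ATF7 completed the named genes of these 15, with 3.57, 2.18 and 3.05 TPM and 1.73, 2.67 and 2.67 TPM, and the remaining ones were unnamed loci such as LOC112531272 with 8.24, 3.59 and 7.83 TPM.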

How the data were processed

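RNA-seq of 3 mock libraries of HD11 cells was used, from total RNA sequenced in pairs, per the labels' protocols. The deposited expected counts and the deposited TPM, which have the same sum in each library, were made by the authors. The genome build GRCg6a and DESeq2 are named in the submitters' processing notes, and the sources used here do not give the aligner or the counter. The authors' table of differential genes was not used, and no test between groups was made.

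From the deposited TPM, means, SDs, counts at or above 1 TPM and medians of gene lists were computed with Python 3.11.15 and pandas 2.3.3. The spread between libraries was fitted on rounded expected counts with edgeR 4.0.16 (R 4.3.3), an intercept and TMM factors, over 10842 genes kept by its filter on low counts, and tested on simulated data. Length was taken as the ratio of count to TPM. CPM is a count scaled to the library total.

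Gene lists (42 lists and 16 name patterns, 933 entries) were matched by deposited symbol (735) or by the RefSeq symbol of the same gene ID (8), and 190 entries were not matched. RefSeq (GRCg7b) held 13998 of the IDs and gave names only. The members and lists were chosen with earlier results of these data known. The genes named are the 30 of highest mean TPM, the leading and unread members of each list, all listed Toll-like receptors, interferon receptor chains, kinases, STAT, IRF, interferon and interferon-stimulated genes found, and the 15 of largest spread at 5 CPM or more; some genes that this rule names are not reported here, of large name families only some such members are named, and further genes were chosen after their values were seen, for their known role. Depth was 15665594 to 15735291 counts per library; intervals and limits from counts cover counting error only. Alternatives tried were other thresholds, CPM, pseudocounts, other scaling factors and leaving out each library.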

Additional observations from a re-analysis of the deposited data

How the results depend on the processing

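Of 300 recomputed values, 249 kept within their limits and 51 moved, while changes of sign were not counted. Among the 300 were 39 levels of single genes with a library left out, whose limit was the SD over the 3 libraries. Leaving out 1 of 3 values cannot shift a mean by that much. These 39 could therefore not move, and they do not bear on stability. The number of genes at or above 1 TPM was 10744 at 0.5 TPM and 9522 at 2 TPM. Genes with no read numbered 2035 when up to 3 counts were allowed, 2786 under 0.1 TPM, and 866 to 887 with a library left out, for fewer reads were then summed. The 20 leading genes held 8.91% of counts without length scaling. In CPM, another scale than TPM, list medians were 68.6 for myeloid transcription factors, 16.9 for macrophage surface receptors, 166 for lysosome and phagocytosis, 119 for MHC class I, 36.4 for Toll-like receptors, 23.8 for cytosolic sensors and adaptors, 50.6 for interferon receptors, 21.0 for interferon-stimulated genes, 0.23 for chemokines, 122 for cell cycle and replication and 692 for cytosolic ribosomal proteins. Over only the members at or above 1 TPM, they were, in TPM, 33.7 for myeloid transcription factors, 32.0 for macrophage surface receptors, 197 for MHC class I, 43.6 for MHC class II, 19.1 for Toll-like receptors, 12.7 for cytosolic sensors and adaptors, 51.7 for interferon receptors, 14.0 for interferon-stimulated genes, 28.2 for chemokines and 86.0 for cell cycle and replication. With a library left out, the median was 13.6 to 14.0 TPM for surface receptors, 134 to 139 TPM for the lysosome list and 39.3 to 40.4 TPM for MHC class II, and the biological coefficient of variation was 2.15 to 5.06%, lowest without mock replicate 3. In TPM, the interferon-stimulated list deviated by 0.0072 in mock replicate 1 and -0.0325 in mock replicate 3 (log2). In CPM these values were -0.0147 and 0.0016, so their signs differed. Leaving out mitochondrially encoded genes was not run, since none are listed. Of 114 list counts at 0.5 or 2 TPM, an alternative added after seeing the data, 12 moved by over 1.5 times, for example the chemokines, with 12 at 0.5 TPM against 7 at 1 TPM. No paired analysis was possible because no test between groups was made. Depth limits the lowest values: 1 read was worth a median of 0.032 TPM, 70 genes at or above 1 TPM rest on fewer than 30 counts, and 4 genes at or above 100 TPM on fewer than 300. The 3 libraries of one transformed line and one batch do not show how resting cells of other cultures or birds vary.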

Other observations

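All 33 listed proteasome genes had at least 1 TPM, against 68.3% of all genes, with a median of 296 TPM. They were led by the core subunit genes PSMB4 with 1870.1 ± 34.2 TPM and PSMA7 with 1102 ± 24.1 TPM (SD, n = 3). All 74 genes of mitochondrial ribosomal proteins passed 1 TPM too, against the same 68.3%, with a median of 116 TPM. None of them reached the level of the cytosolic ribosomal median of 3590.3 TPM. All 20 chaperone genes had at least 1 TPM, again against 68.3% of all genes. The cytosolic chaperone genes HSPA8 and HSP90AA1 had 2597, 2486 and 2523 TPM and 1589, 1573 and 1521 TPM in mock replicates 1, 2 and 3. Of 55 RAB genes, whose GTPases direct membrane traffic, 49 had at least 1 TPM, against 68.3% of all genes, led by RAB7A, which serves late endosomes and lysosomes, with 427, 415 and 399 TPM. Of 266 solute carrier genes, 174 had at least 1 TPM, a share close to the 68.3% of all genes, led by the mitochondrial carriers SLC25A6, for ADP and ATP, with 1235, 1255 and 1220.2 TPM and SLC25A3, for phosphate, with 1131, 1133 and 1159.5 TPM. At the cell surface the taurine transporter gene SLC6A6 had 265, 262 and 232 TPM.

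A few values at the edges of the table call for the read counts beside them. The intermediate filament gene VIM had 1083, 1045 and 1070.2 TPM on 67969 reads, while MT4L was listed at 103 TPM on 197 reads and PIGBOS1 at 156 TPM on 176 reads. The gene listed as EEF1G, which in other species encodes a widely expressed elongation factor subunit, was listed at 0.09, 0.09 and 0 TPM on 2 reads, and the glycolytic kinase gene PFKM at 0.14, 0.14 and 0.57 TPM on 25 reads. Next to the threshold of 1 TPM lay PHYHD1, an oxygenase gene, with 1.07, 1.05 and 0.88 TPM on 274 reads.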
